A study of Medicago truncatula with 21 samples.

Results

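Seeds of the abi4-1 line of the model legume Medicago truncatula were compared with seeds of its wild-type parent R108 at 13 days after pollination (DAP). The comparison used 6 of the 21 seed libraries of the series, 3 for abi4-1 and 3 for R108. The table listed 44473 gene identifiers, and the 22499 with a value of at least 10 in at least 3 of the 6 libraries were tested. The abi4-1 plants were the line NF19813, which the labels give as abi4-1 in R108 and the title of the series as carrying an insertion of the Tnt1 retrotransposon in MtABI4. R108 is the wild-type genotype into which Tnt1 was introduced. Both groups were whole seeds from plants grown in a culture room without any treatment, taken out of the pods and frozen. The remaining libraries were abi4-1 and R108 seeds at 24 DAP and mature seeds of abi4-1, of the second insertion line abi4-2 and of R108, and they are used here only beside the 13 DAP values. At 13 DAP abi4-1 was a single line, so the effect of its insertion in ABI4 and that of any other insertion the line may carry cannot be told apart.

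ABI4 belongs to the AP2/ERF family of DNA-binding regulators. It was first described in Arabidopsis from mutants that germinate in the presence of abscisic acid, and it also acts in sugar signalling. Legume seeds pass from embryo growth by cell division to filling, when cotyledon cells expand and accumulate storage proteins, oil and sugars, and then to maturation, when the embryo acquires desiccation tolerance under the influence of abscisic acid. The comparison asks which transcripts differ before most of filling has taken place.

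Values are normalized read counts, so they depend on transcript length, and differences are read between libraries for the same gene, not between genes. Where genes are called abundant, are ranked or are given as a share of a library total, normalized counts are meant, into which transcript length enters. Library totals lay between 21035365 and 24032451 normalized counts, and between 22111 and 22519 identifiers reached 10 in any 1 of them. No deposited file gives gene names for the identifiers, and 0 entries of the reference gene table held one of them. The ABI4 transcript was therefore not identified, neither the insertion nor seed markers could be checked against the labels, and genes other than 4 named identifiers are described by their chromosome, as the identifier gives it, and by their values. A whole seed holds embryo, endosperm and seed coat, and fewer cells of a type and less RNA per cell cannot be told apart.

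The abi4-1 seeds differed from R108 seeds in a small share of their transcriptome, in both directions, and the widest differences were losses. A total of 554 genes (2.46% of those tested) passed an adjusted p of 0.05 in the limma fit, with 283 higher in abi4-1 (1.26%) and 271 lower (1.2%). At an unadjusted p under 0.05 there were 3014 genes. The median log2 difference was 1.29 over the genes called higher, -1.48 over those called lower and -0.01 over all genes tested. At least 4-fold differences were found in 73 of the genes called higher (0.324% of those tested) and in 104 of those called lower (0.462%). Differences of at least 16-fold were found in 11 genes called higher and in 33 called lower, and of at least 32-fold in 2 and 19. The filter let 100 genes through by their abi4-1 values alone, of which 32 were called, and 97 by their R108 values alone, of which 52 were called. Such genes had to differ between the groups, so part of all these counts follows from the filter. All 554 called genes had 3 abi4-1 values that did not overlap the 3 R108 values, against 18.8% of all genes tested, a property that passing the test largely fixes.

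**Figure D1:**
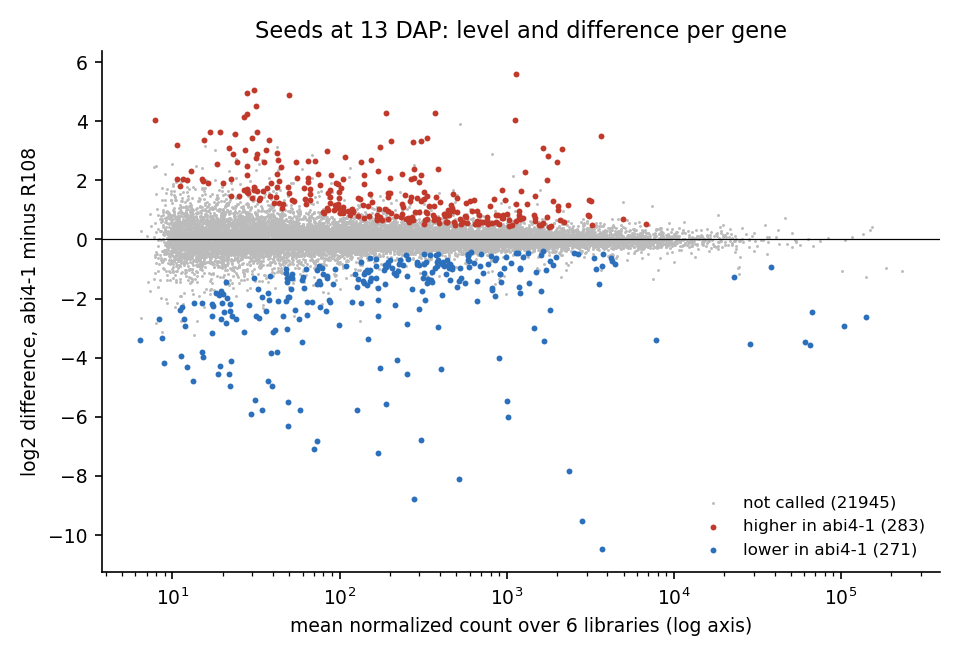
Each point is 1 of the 22499 genes tested at 13 DAP, with the mean normalized count over the 6 libraries on a log axis and the fitted log2 difference, abi4-1 minus R108, on the vertical axis. The 283 genes called higher in abi4-1 reach 5.58, the 271 called lower reach -10.46, and all 8 called genes with a mean of at least 10000 lie below 0.

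How many genes were called depended on the libraries. Same-numbered libraries of abi4-1 and R108 deviated together from their group means, and with the replicate number as a block in limma 834 genes were called (3.71% of those tested), 461 higher and 373 lower in abi4-1. They included 537 of the 554. Without abi4-1 replicate 1, 2 or 3 the fit called 295, 315 and 202 genes. Without R108 replicate 1, 2 or 3 it called 356, 984 and 205. In the fit without abi4-1 replicate 3, 74 genes were higher and 128 lower, so the even split between directions became 36.6% higher. After scaling to column totals, 414 genes were higher and 249 lower, or 62.4% higher. A total of 174 genes were called in the fit of all 6 libraries and in each fit without 1 library, 69 higher and 105 lower in abi4-1, among them 40 and 66 with at least a 4-fold difference.

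The 6 libraries separated by genotype. The first principal component held 46.5% of the variance and placed the abi4-1 libraries between -39.5 and -34.4 and the R108 libraries between 28.1 and 42.9. The second held 22.1% and ordered the replicate numbers alike in both genotypes, at 24.5, -23.3 and 5.04 for abi4-1 replicates 1 to 3 and at 35.4, -40.4 and -1.27 for R108 replicates 1 to 3. R108 replicate 2 was thus the R108 library nearest to the mutant. In 174 of the 271 genes called lower in abi4-1 (64.2%) it had the R108 value closest to the mutant's, and in 125 of the 283 called higher (44.2%), against 38.3% of all genes tested.

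Called genes were found at every expression level, and with all 6 libraries those called among the most abundant transcripts were all lower in abi4-1. Of 6868 genes with a mean under 100 normalized counts, 99 were called higher and 104 lower in abi4-1. Of 10754 with a mean of 100 to 1000, 140 were higher and 122 lower, and of 4656 with a mean of 1000 to 10000, 44 were higher and 37 lower. Of 221 genes at 10000 or more, 0 were called higher and 8 lower in the limma fit, with 11 and 18 at an unadjusted p under 0.05 and 2 and 13 called with the replicate block. Of the 8, 5 were neighbours on chromosome 7, described below. Only a gene of chromosome 1 with a log2 difference of -2.46 kept its call in every fit without 1 library (limma adjusted p at most 0.013). The others lost it in some of these fits, with limma adjusted p-values of up to 0.127, so the direction among abundant transcripts rests on few calls. The genes called lower summed to 1.05, 0.919 and 1.03% of the library total in abi4-1 replicates 1 to 3, against 6.81, 2.83 and 4.72% in R108 replicates 1 to 3. The genes called higher summed to 0.918, 0.873 and 0.964% in abi4-1 and to 0.388, 0.426 and 0.406% in R108. These sums follow from how the genes were chosen and are given as sizes.

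A run of 5 abundant transcripts on chromosome 7 made up most of what the lowered genes lost. The run was picked out after the values had been seen, so the following is a description. The 5 genes lay within 6 consecutive tested genes, and the gene between them had a log2 difference of 0.04 and was not called. The first of the run had 39311, 29832 and 37184 normalized counts in the abi4-1 libraries, against 392711, 116091 and 229913 in the R108 libraries. By mean normalized count, not corrected for transcript length, it ranked 3 in R108 seeds at this stage. Every R108 library lay above its abi4-1 libraries.

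The second gene of the run had 11786, 6900.2 and 7529 normalized counts in abi4-1, against 212715.5, 43178.5 and 109873 in R108. The third had 4962, 2887 and 2881 in abi4-1, against 103694, 14843 and 41549 in R108, and showed the widest spread within R108 relative to its mean. The same order of libraries, with R108 replicate 1 highest and R108 replicate 2 lowest of the wild type, returned in the other members. The fourth had 10494.5, 7496 and 8044 in abi4-1, against 187091, 41433 and 110749 in R108. The fifth had 24563, 18768 and 21688 in abi4-1, against 290037, 80868 and 186669 in R108. In none of the 5 did the groups overlap, which holds for all 554 called genes and so follows from their being called.

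The fitted log2 differences of the 5 genes, in order, were -2.64 ± 0.39, -3.56 ± 0.50, -3.53 ± 0.59, -3.47 ± 0.46 and -2.92 ± 0.40 (SE, n = 3 each), with limma adjusted p-values of 0.0117, 0.00899, 0.0213, 0.00671 and 0.00794. With the replicate block all 5 remained called. Without abi4-1 replicate 2, 3 of the 5 remained called, without abi4-1 replicate 3 none did, with limma adjusted p-values of up to 0.117, and without R108 replicate 3 only 1 did. The 17 tested genes around and between the 5 held 0 calls in the limma fit, with log2 differences from -0.31 to 0.91, those at -0.31 and 0.91 with an unadjusted p under 0.05 and the one at 0.91 called with the replicate block.

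**Figure D2:**
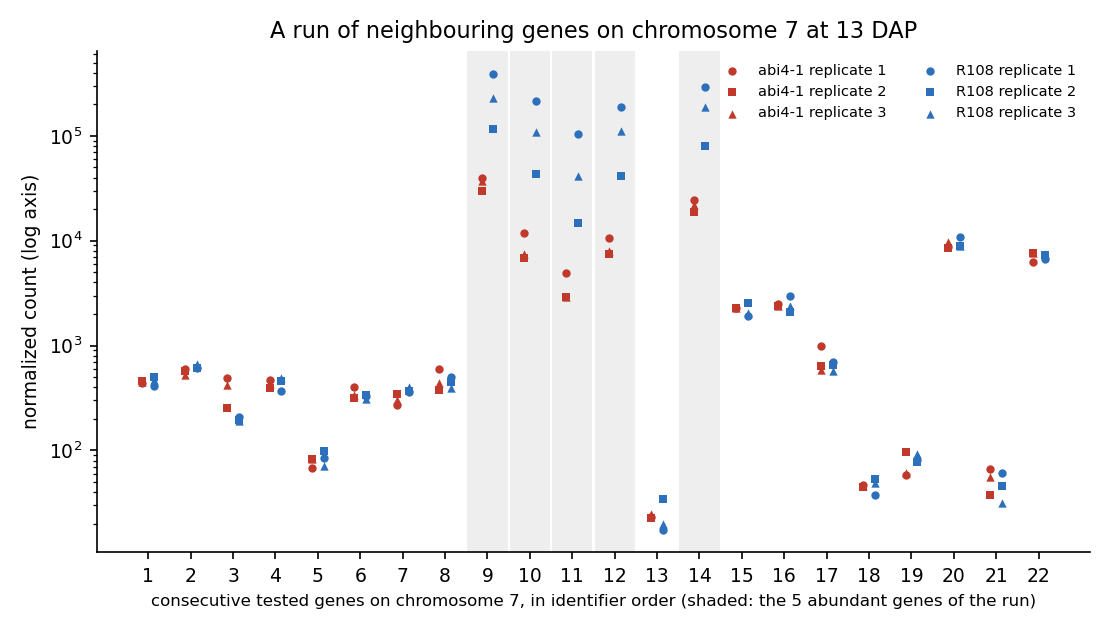
Normalized counts (log axis) of 22 consecutive tested genes on chromosome 7 in identifier order, with abi4-1 libraries in red to the left of R108 libraries in blue and a marker shape for each replicate number. In the 5 shaded genes all abi4-1 values lie below all R108 values, and the 17 unshaded genes include no called gene.

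Together the 5 chromosome 7 genes took 0.433, 0.308 and 0.356% of the library total in abi4-1, against 4.94, 1.38 and 2.94% in R108. At 24 DAP their share was 0.911 ± 0.0486% in abi4-1 and 1.15 ± 0.152% in R108 (SD, n = 3 each). In mature seeds it was 0.0245% in abi4-1, 0.0633% in abi4-2 and 0.0128% in R108. The difference between genotypes at 24 DAP was smaller for each gene, with log2 differences of -0.64, -0.16, -0.40, -0.45 and -0.38. The test of the difference between the 2 stages passed for all 5, with values of 2.00, 3.41, 3.14, 3.02 and 2.54 on the log2 scale and limma adjusted p-values of 0.0302, 0.0045, 0.0166, 0.00619 and 0.0089. That test reuses the 13 DAP values for which the 5 were picked, and the choice of a gene by its 13 DAP difference favours a narrower one at the other stage, so here and for the genes below its values are given as a description.

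Of the 8 abundant transcripts called lower, 3 lay outside this run. One on chromosome 1 had 18863, 17595 and 23915 normalized counts in abi4-1, against 153784.5, 77890.5 and 110683 in R108, a log2 difference of -2.46 (limma adjusted p = 0.0015). The groups did not overlap, as in all 554 called genes, and R108 replicate 2 was again the lowest of its group. Another on chromosome 1 had 10681, 14507 and 14749 in abi4-1, against 33586, 24150.5 and 39539.5 in R108 (-1.27, limma adjusted p = 0.0172). These calls were not kept in every fit without 1 library, where the limma adjusted p reached 0.0767 for the gene at -1.27 and 0.127 for the last. The last, on chromosome 3, had 25525, 22968 and 30094 in abi4-1, against 47901, 43102 and 57419 in R108 (-0.92, limma adjusted p = 0.0255). At 24 DAP this gene averaged 11353 in abi4-1 and 10356 in R108 and was not called (limma adjusted p = 0.501), and the test between stages passed with a value of 1.05 (limma adjusted p = 0.0165).

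Transcripts that dominate seeds during filling were taken as the 100 highest in R108 at 24 DAP, a choice that uses no 13 DAP library. They took 8.03, 7.55 and 8.03% of the library total in abi4-1 replicates 1 to 3 at 13 DAP, against 17.9, 8.17 and 13.1% in R108 replicates 1 to 3. All R108 values lay above all abi4-1 values, but R108 replicate 2 did so narrowly. The 100 include the 5 chromosome 7 genes, which took 1.38% in R108 replicate 2 against 0.308 to 0.433% in abi4-1. That narrow margin rests on these 5 genes. For all 100 the difference was -5.19 percentage points, with a two-sided exact permutation p of 0.1, the smallest that 3 against 3 libraries allow. The exact sign-flip p over same-numbered pairs was 0.25, also the smallest possible. Of the 99 of these genes that were tested, 8 were called lower and 1 higher in abi4-1 (9.09%, beside 2.46% of all genes), and 5 of the 8 were the chromosome 7 genes. The choice of 5 or 500 genes gave -2.45 and -4.64 percentage points, with exact permutation p-values of 0.3 and 0.2. With the 100 genes highest in abi4-1 at 24 DAP the difference was -4.89 percentage points (exact permutation p = 0.3). There R108 replicate 2, at 9.25%, lay below abi4-1 replicates 1 and 3, at 9.27 and 9.61%, so the groups overlapped.

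The 5 transcripts that lead R108 seeds at 24 DAP were not called at 13 DAP with all 6 libraries, but without R108 replicate 2 all 5 were called lower in abi4-1 (limma adjusted p of 0.00558 to 0.0242). In the fits without any other library 0 of the 5 were called. The first, on chromosome 1, had 121190, 84780 and 112580 normalized counts in abi4-1, against 465006, 75608.5 and 251888 in R108. The groups overlapped because R108 replicate 2 lay below every abi4-1 library, while R108 replicates 1 and 3 lay above. The 5 had a median log2 difference of -1.07 and took 2.02, 1.44 and 1.84% of the total in abi4-1, against 7.04, 1.45 and 4.16% in R108. Across the R108 libraries the share of the 5 leaders and that of the chromosome 7 genes followed the same order, highest in replicate 1 and lowest in replicate 2. The part of the one in the other was not tested. In R108 replicate 2 the chromosome 7 genes took 1.38% of the total, against 0.308% in abi4-1 replicate 2. They were picked from genes called lower at 13 DAP, which largely fixes that each R108 library lies above abi4-1. The 5 leaders were not chosen in that way, so the 2 sets are only set side by side.

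**Figure D3:**
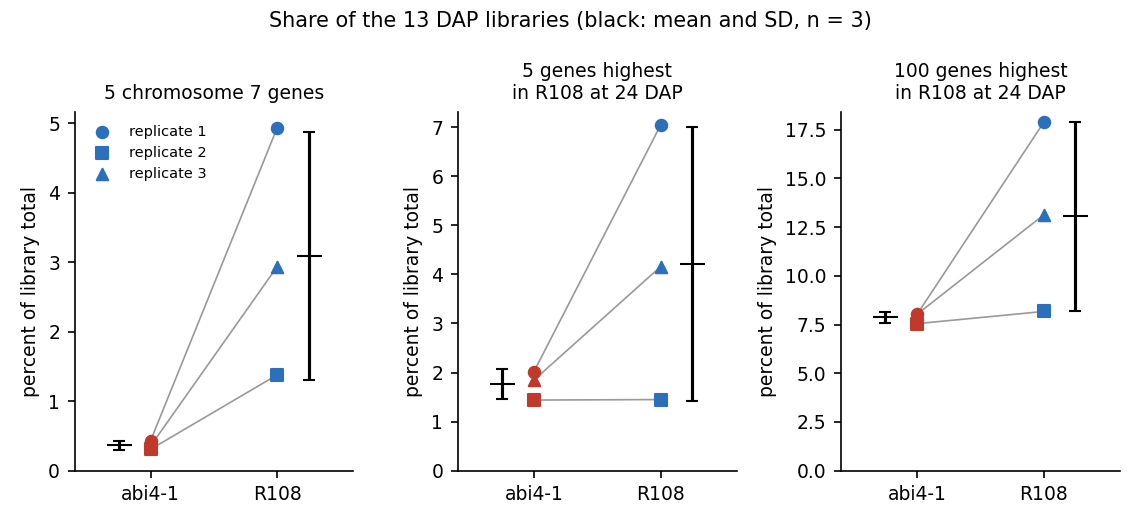
Share of the library total (percent) at 13 DAP taken by the 5 chromosome 7 genes, by the 5 genes highest in R108 at 24 DAP and by the 100 highest, with abi4-1 left of R108, a grey line between libraries of the same replicate number and the mean and SD (n = 3) in black. R108 replicate 2 meets the abi4-1 libraries in the second and nearly in the third panel, at 1.45 and 8.17%. It lies above them in the first, at 1.38%, where the genes were picked as called lower at 13 DAP. The 100 genes of the third panel include those of the other panels.

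Of the genes that rose, MtrunA17_Chr3g0120071 on chromosome 3 had the largest fitted difference. It had 1966, 2165 and 2563.5 normalized counts in abi4-1, against 66.6, 31.2 and 44.9 in R108, a log2 difference of 5.58 ± 0.24 (SE, n = 3 each, limma adjusted p = 1.71e-05). The 3 abi4-1 values were close to each other and far above every R108 value. At 24 DAP MtrunA17_Chr3g0120071 averaged 2470.3 ± 254 in abi4-1 and 31.2 ± 15.9 in R108 (SD, n = 3 each). In mature seeds its highest value was 1.99 in abi4-1, 2.94 in abi4-2 and 0 in R108, so the transcript was near its floor in all 3 genotypes.

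MtrunA17_Chr6g0477741 on chromosome 6 had 754.0, 559.9 and 790.4 normalized counts in abi4-1, against 51.8, 16.2 and 49.2 in R108, a log2 difference of 4.28 ± 0.40 (SE, n = 3 each, limma adjusted p = 0.00112). At 24 DAP it averaged 55.5 ± 5.21 in abi4-1 and 9.59 ± 5.49 in R108 (SD, n = 3 each), with a log2 difference of 2.58. The test of the difference between stages did not pass for MtrunA17_Chr6g0477741 (-1.70 ± 0.63, limma adjusted p = 0.144).

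The next 8 genes, taken by the same rule that each be called in every fit without 1 library and average at least 100 in abi4-1, lay on chromosomes 2, 3, 5 and 8. One on chromosome 2 had 2088, 2133 and 2093 normalized counts in abi4-1, against 200.0, 99.5 and 102 in R108, and was also higher at 24 DAP, at 514 in abi4-1 and 53.4 in R108. One on chromosome 5 had 645, 590 and 438 in abi4-1, against 28.5, 83.1 and 66.8 in R108, and at 24 DAP it averaged 46.5 in abi4-1 and 111 in R108, where it was not called (limma adjusted p = 0.115). The test between stages passed for the gene of chromosome 5, with a value of -4.42 (limma adjusted p = 0.00168), and not for the gene of chromosome 2.

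One gene of chromosome 8 changed direction between the stages. At 13 DAP it had 704, 357 and 432.5 normalized counts in abi4-1, against 46.9, 67.6 and 33.6 in R108, a log2 difference of 3.30 (limma adjusted p = 0.0011). At 24 DAP, when it belonged to the 100 most abundant transcripts of R108 seeds, it averaged 10885 in abi4-1 libraries and 24385 in R108 libraries, the log2 difference being -1.19 (limma adjusted p = 0.00102). The test of the difference between stages gave -4.49 (limma adjusted p = 3.4e-05). In mature seeds it averaged 1001 in abi4-1, 700.0 in abi4-2 and 663 in R108. This was the only gene called higher at 13 DAP among those 100.

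Of the genes that fell, MtrunA17_Chr2g0311471 on chromosome 2 had the largest fitted difference. It had 0, 24.7 and 4.65 normalized counts in abi4-1, against 7409, 7340 and 7384 in R108. The log2 difference was -10.46 ± 0.94 (SE, n = 3 each, limma adjusted p = 0.000987) with the pseudocount of 1, and such a value depends on the pseudocount, ranging from -11.7 with 0.1 to -9.36 with 5. The R108 values were nearly equal, and the abi4-1 values were close to the floor. At 24 DAP MtrunA17_Chr2g0311471 averaged 0.643 in abi4-1 and 205 in R108, and in mature seeds it did not exceed 0.977 in any genotype.

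MtrunA17_Chr4g0028501 on chromosome 4 had 3.13, 9.21 and 9.57 normalized counts in abi4-1, against 6541, 4707.5 and 5741 in R108, a log2 difference of -9.52 ± 0.34 (SE, n = 3 each, limma adjusted p = 5.08e-06). At 24 DAP it averaged 1.01 ± 1.17 in abi4-1 and 316.5 ± 24.1 in R108 (SD, n = 3 each), and it was listed at 0 in all 9 mature libraries. With the 2 stages together, the difference between genotypes of MtrunA17_Chr4g0028501 was smaller at 24 DAP by 2.06 ± 0.57 (limma adjusted p = 0.0498), just inside the threshold. With abi4-1 near the floor, the R108 level of 316.5 bounds the difference at 24 DAP, so nothing is read from its smaller size. Both named genes that fell were thus close to the floor in the mutant and well above it in R108 at both developing stages.

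A neighbour of MtrunA17_Chr2g0311471, 4 tested genes apart when both ends are counted, had 14.8, 25.7 and 19.4 normalized counts in abi4-1, against 4949, 4458 and 4772 in R108. Another lowered gene of chromosome 2 had 2.16, 2.71 and 0 in abi4-1, against 400.5, 301 and 317 in R108. The 3 lay within 21 of the 2693 tested genes of this chromosome, and 6 genes of chromosome 2 were lowered at least 16-fold in all. The rest of the 33 genes lowered at least 16-fold were spread over the other chromosomes. One on chromosome 7 had 2.13, 1.86 and 4.61 in abi4-1, against 1104, 708.5 and 1294 in R108. One on chromosome 1 had 24.8, 64.5 and 16.8 in abi4-1, against 2232, 1969 and 1784 in R108. In mature seeds the order of this gene was the other way round, at 42.7 in abi4-1, 19.1 in abi4-2 and 1.35 in R108.

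Some transcripts were close to absent in 1 genotype. A total of 22 genes had under 3 normalized counts in each abi4-1 library and at least 10 in each R108 library, and 6 had the reverse pattern. The R108 means of the 22 ran from 12.5 to 555 with a median of 43, and the abi4-1 means of the 6 ran from 15.8 to 61.1 with a median of 45.9. In the limma fit 21 of the 22 and all 6 were called, which their choice on the same values fixes for the most part. The most abundant of the 22, on chromosome 1, had 0, 0 and 0.92 in abi4-1, against 623, 449 and 593 in R108. Another on chromosome 8 was listed at 0 in all abi4-1 libraries and had 190, 84.6 and 149 in R108. The 22 lay on 6 chromosomes. Of the 6 genes close to absent in R108, 4 lay on chromosome 7, which held 2738 of the 22499 genes tested. With so few genes nothing is read from this placement. With an upper bound of 5 in place of 3 the counts were 38 and 18.

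At 24 DAP the abi4-1 seeds again had under 3 normalized counts in each library for 19 of the 22 genes. R108 kept at least 10 in each library for 7 of the 22, all 7 among those 19. For others of the 22, R108 was itself under 3 in each library at 24 DAP, so no difference between genotypes could be seen there. In mature seeds 15 of the 22 were under 3 in all 9 libraries of the 3 genotypes, so that the difference between genotypes could not be seen there. An exception on chromosome 4 was listed at 0 in all abi4-1 libraries at 13 DAP, against 68.2, 53.8 and 56.2 in R108, but at 24 DAP ran from 0 to 74.9 in abi4-1 and from 0 to 34.6 in R108, and averaged 48.3 in abi4-1 and 21.6 in R108. It was not called there (limma adjusted p = 0.816). Of the 6 genes close to absent in R108 at 13 DAP, all 6 were under 3 in each R108 library at 24 DAP, and 2 had at least 10 in each abi4-1 library. One of these, on chromosome 4, had 72.0, 47.1 and 62.4 in abi4-1 at 13 DAP, against 0, 0.95 and 2.04 in R108, and averaged 19.3 in abi4-1 and 0 in R108 at 24 DAP.

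**Figure D4:**
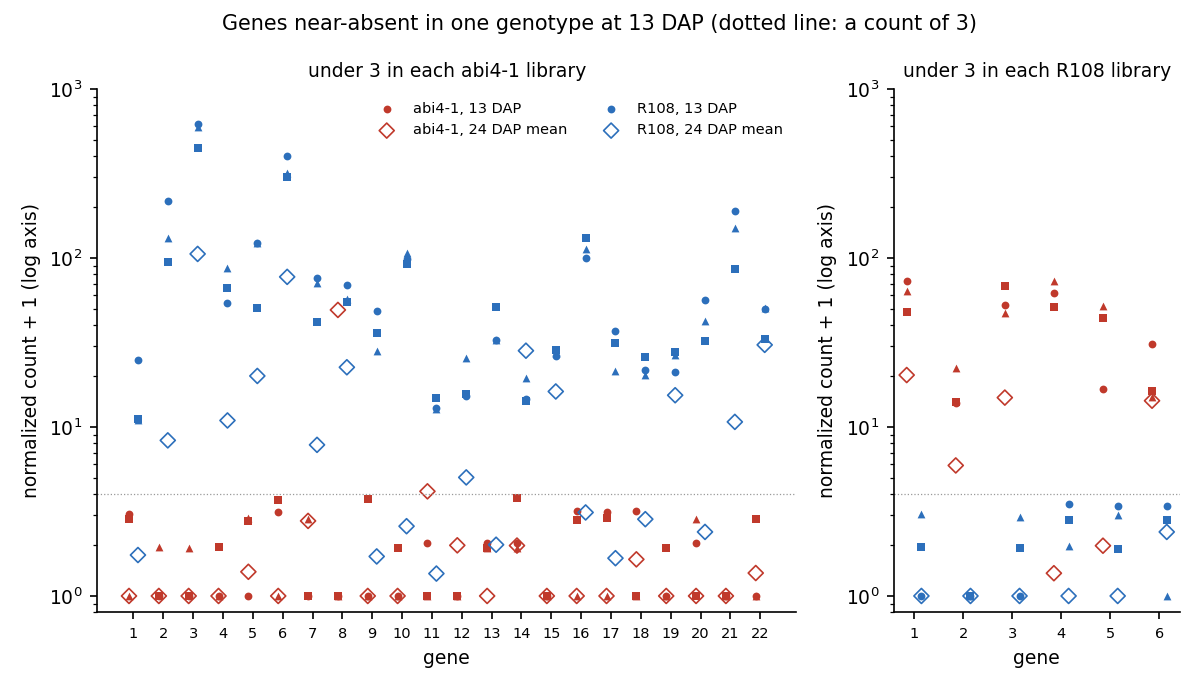
Normalized count plus 1 (log axis) of the 22 genes under 3 in each abi4-1 library and at least 10 in each R108 library at 13 DAP, and of the 6 genes with the reverse pattern. Filled points are the 13 DAP libraries, with abi4-1 in red left of R108 in blue, open diamonds are 24 DAP means, which were scaled separately from the 13 DAP values, and the dotted line marks a count of 3. For 19 of the 22 genes every abi4-1 library at 24 DAP was also under 3, and the highest red diamond, at 48.3, is the exception on chromosome 4.

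Genes at least 4-fold apart at 13 DAP mostly differed in the same direction at 24 DAP, in libraries that had no part in choosing them. Of the 73 genes at least 4-fold higher in abi4-1 at 13 DAP, 63 had a higher mean in abi4-1 at 24 DAP (86.3%), against 46.9% of all genes tested at 13 DAP. All 3 abi4-1 values lay above all 3 R108 values at 24 DAP in 51 of the 73 (69.9%), against 15.6% of all. Of the 104 genes at least 4-fold lower, 96 had a lower mean in abi4-1 at 24 DAP (92.3%), against 52.5% of all. All 3 abi4-1 values lay below all 3 R108 values in 70 of the 104 (67.3%), against 14.6% of all.

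In the limma fit at 24 DAP, 54 of the 73 passed the filter on low values, 12 of them through abi4-1 alone, and 39 were called higher and 2 lower (9.64% of all genes tested at 24 DAP were called higher). Of the 104, 64 passed, 25 of them through R108 alone, and 47 were called lower and 2 higher (6.4% of all were called lower). A gene that passes through 1 genotype alone had to differ, so these counts are given as a description. Over all 554 genes called at 13 DAP, 247 of the 283 higher and 210 of the 271 lower were tested at 24 DAP, with median log2 differences of 0.59 and -0.41 there.

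The differences were on the whole narrower at 24 DAP. In the test of the difference between stages, 217 of the 554 called genes passed. Of the 283 higher in abi4-1 at 13 DAP, 78 had a more negative and 28 a more positive difference at 24 DAP, and of the 271 lower, 105 had a more positive and 6 a more negative one. Over all genes in that fit, 3.87% were more positive and 2.37% more negative at 24 DAP. As these genes were chosen by their 13 DAP difference, nothing is read from this direction.

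**Figure D5:**
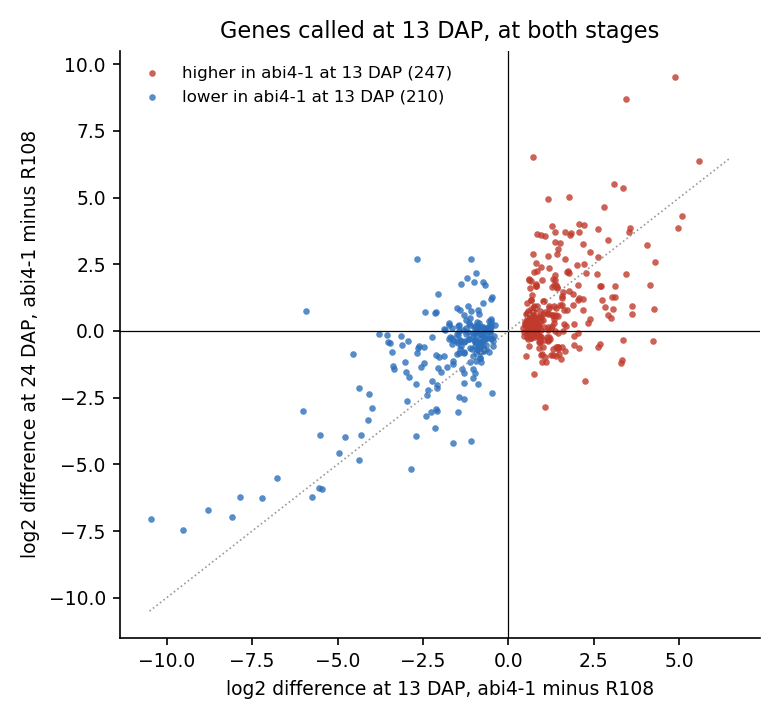
Log2 difference, abi4-1 minus R108, at 13 DAP (horizontal) and at 24 DAP (vertical) for the genes called at 13 DAP that were tested at both stages, 247 higher and 210 lower in abi4-1, with the line of equal differences dotted. Most points with a wide difference at 13 DAP lie on the same side of 0 at 24 DAP, and the points lowest on the horizontal axis, from -10.46, stay below 0 on the vertical one.

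In mature seeds a smaller share of the 13 DAP genes could be tested. Of the 73 genes at least 4-fold higher, 38 were tested in mature seeds, with 25 called higher and 2 lower in abi4-1 and 21 higher and 1 lower in abi4-2. Over all genes tested in mature seeds, 24% were called higher and 22.2% lower in abi4-1, and 22% higher and 20.5% lower in abi4-2. Of the 104 genes at least 4-fold lower, 34 were tested, with 11 higher and 11 lower in abi4-1 and 12 higher and 10 lower in abi4-2. The median log2 difference of the 34 was -0.19 in abi4-1 and -0.13 in abi4-2, and that of the 38 was 1.10 and 0.84. The 2 mature comparisons share their R108 libraries and are set side by side only.

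Other neighbouring genes were called in the same direction too. Windows of 6 consecutive tested genes with at least 3 calls in 1 direction were found at 6 places for genes higher in abi4-1, with 22 members, and at 4 places for genes lower, with 15 members, the chromosome 7 run and its 5 genes included. Of the 283 genes called higher, 41 (14.5%) stood next to another called higher, and of the 271 called lower, 39 (14.4%). Of all genes tested, 1.26% were called higher and 1.2% lower. Those are shares for a single gene, while a called neighbour on either side was counted here, so the percentages are not on the same footing. How often calls placed at random would form such pairs or windows was not tested, so these counts are a description. Neighbours can be near-identical copies that share reads, and how the authors' counting divided such reads is not given in the sources used here.

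A group of 3 neighbours on chromosome 8 was higher in abi4-1. The most abundant had 6299.8, 6059 and 7917 normalized counts in abi4-1, against 762, 467 and 567 in R108, a log2 difference of 3.51 (limma adjusted p = 4.2e-05). A second had 542, 574 and 726 in abi4-1, against 61.4, 57.0 and 47.8 in R108, a log2 difference of 3.44. The third averaged 230.0 in abi4-1 and 49.8 in R108, a log2 difference of 2.17. All 3 were also higher in abi4-1 at 24 DAP, with log2 differences of 3.70, 2.14 and 3.27.

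The longest group that was higher in abi4-1 held 6 genes on chromosome 3. Its 5 least abundant members in R108 averaged 30.7 to 311 normalized counts in abi4-1 and 2.69 to 35.9 in R108, with log2 differences of 2.67 to 3.62. Those with R108 means of 2.69, 5.07 and 7.23 were under 10 in each R108 library. They passed the filter through abi4-1 alone and had to differ, so the length of the group follows in part from the filter. The member at 2.69 had a limma adjusted p of 0.0399, and of up to 0.191 in the fits without 1 library. The most abundant of the 5 had 294, 299 and 340 in abi4-1, against 44.8, 26.5 and 36.4 in R108, and all abi4-1 values lay above all R108 values. At 24 DAP it averaged 7309 in abi4-1 and 2281 in R108, and in mature seeds 345 in abi4-1, 277.5 in abi4-2 and 84.1 in R108, with limma calls higher in each comparison. The sixth member averaged 719 in abi4-1 and 284 in R108 at the earlier stage, with a log2 difference of 1.40, and 69.0 in abi4-1 and 104 for R108 at 24 DAP, with a log2 difference of -0.58 (limma adjusted p = 0.0496).

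Within 20 consecutive tested genes on chromosome 2, 5 genes were lower in abi4-1 with smaller differences, from -1.30 to -1.89 on the log2 scale. With the replicate block 4 of the 5 were called, and the last had a limma adjusted p of 0.0506. The most abundant had 372, 325 and 381 normalized counts in abi4-1, against 1032.5, 737 and 1154 in R108. Another had 169, 159 and 215.5 in abi4-1, against 521.5, 336 and 494 in R108. Both lay below R108 in every library, and both were also lower at 24 DAP, with log2 differences of -0.68 and -0.40 and limma adjusted p-values of 0.00243 and 0.0114.

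Transcripts of the organelle genomes held no called gene. Of 71 plastid and 26 mitochondrial genes tested, 0 were called in the limma fit, with 0 at an unadjusted p under 0.05 and 0 called with the replicate block. The plastid median was -0.08 on the log2 scale and 0.01 after scaling to column totals. The mitochondrial median was -0.17, and both medians changed sign without abi4-1 replicate 1, at 0.28 for the plastid and 0.09 for the mitochondrial genes, and without R108 replicate 3, at 0.12 and 0.03. Between 2.19 and 2.73% of the tested genes of each of the 8 chromosomes were called.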

How the data were processed

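RNA of whole seeds was sequenced as short reads on a BGISEQ-500 instrument after mRNA enrichment and random priming, per the labels' protocols. Salmon is named without a version in the submitters' processing notes, and which genome build, annotation and normalization software were used is not given in the sources used here. What the authors deposited under the name FPKM is a signal that behaves as read counts after scaling, not as values per length. The median ratio of a library to all 21 lay from 1.55 to 1.58 for 13 DAP, from 0.552 to 0.56 for 24 DAP and from 1.11 to 1.13 for mature seeds. The stages had thus been scaled separately, and levels are compared within a stage only. Among low values at 13 DAP, only 55.2 to 78.4% were whole numbers of reads (tolerance 0.1), so reads could not be recovered for a count model.

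Differences are limma fits (version 3.58.1, R 4.3.3, intensity trend) of log2(normalized count + 1), abi4-1 minus R108, over the 6 libraries, with genes at 10 or more in at least 3 libraries and Benjamini-Hochberg adjusted p under 0.05 over all genes tested. The pseudocount understates differences of low genes. The other stages were fitted alone, and the difference between stages over 12 libraries, where a factor common to a stage drops out except in part for low genes. Tables were made with Python 3.11.15 and pandas 2.3.3, and the fit was tested on simulated data.

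Named genes are the 2 with the largest difference in each direction among those called in the fit and in each fit without 1 library, with groups that do not overlap and an average of at least 100 in the higher group, which 125 genes met. Fits without 1 library keep the 22499 genes tested. That was settled after values were seen, and it changed the second named gene that fell. The comparison, lists and runs were chosen with earlier results of these data known. The gene lists planned by name were not run.

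Groups come from the sample labels. The design text names replicates from different plants but mutant lines of another gene, and for libraries that were not separate plants the p-values would cover only the spread among these samples. The labels give both groups replicate numbers 1 to 3 but no meaning of a number. Deviations of same-numbered libraries correlated at 0.293, 0.232 and 0.154, each above 0.1, so the numbers were taken as pairs and a block is given as an alternative. All 21 value columns were mapped to samples.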

Additional observations from a re-analysis of the deposited data

Results flagged for a closer look

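In 6 results the difference between abi4-1 and R108 itself differed between 13 and 24 DAP in the limma test of that difference, with adjusted p over 23225 genes. MtrunA17_Chr4g0028501 differed by 2.06 on the log2 scale (24 DAP minus 13 DAP, adjusted p = 0.0498), with the abi4-1 level below R108 at both stages. The 5 chromosome 7 genes, in order along the chromosome, differed by 2, 3.41, 3.14, 3.02 and 2.54, with adjusted p-values between 0.0045 and 0.0302. In each of the 6 the difference was wider at 13 DAP, the stage by whose values the genes were chosen, so the test is not independent of that choice. For MtrunA17_Chr4g0028501 the abi4-1 level was also near the floor at both stages, so the R108 level bounds its difference at each.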

How the results depend on the processing

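The counts of called genes moved most with the libraries left out, which also leaves fewer samples. Without 1 library the genes called higher numbered 74 to 530 (283 with all 6) and those called lower 109 to 454 (271), and those at least 4-fold different 38 to 102 among the higher (73, lowest without abi4-1 replicate 3) and 67 to 104 among the lower (104, lowest without R108 replicate 3). With the replicate block 461 were higher, and the block changed no call of a named gene or of the chromosome 7 run. Without the intensity trend 173 were higher, and at an adjusted p under 0.1 there were 489 higher and 407 lower. With a filter of 50, 42 higher and 62 lower genes were at least 4-fold different, out of fewer genes tested. In the other settings named beforehand for these counts they stayed within 1.5 times. The 4 named genes kept their direction and their call in all 14 settings each. The share of filling transcripts kept its direction in all 10, at -7.64 to -2.45 percentage points. The 217 called genes whose difference changed between stages numbered 155 to 262 in the alternatives. The median shift of all genes was 0.09 on the log2 scale with column totals. Of alternatives chosen after seeing the data, the genes close to absent in abi4-1 numbered 34 without abi4-1 replicate 1, and those close to absent in R108 12 without abi4-1 replicate 2 and 14 without R108 replicate 1. Depth limits the calls of genes near 10 normalized counts, and 21974 identifiers below the filter were not tested.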

Other observations

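Of the genes tested at 13 DAP, 2317 had under 10 normalized counts in each R108 library at 24 DAP and in mature seeds, and of these 41 were called higher and 38 lower in abi4-1 (3.41%, beside 2.46% of all genes tested). Their median log2 difference was 0.05. Of the 100 transcripts most abundant in mature R108 seeds, 97 were tested at 13 DAP, with 1 called higher and 2 lower in abi4-1. They took 3.60, 3.47 and 3.54% of the library total in abi4-1 replicates 1 to 3 and 4.29, 3.45 and 3.90% in R108 replicates 1 to 3, where R108 replicate 2 lay below every abi4-1 library (two-sided exact permutation p = 0.4).

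A gene on chromosome 6 among the 100 most abundant in R108 at 24 DAP had 458, 548 and 464 normalized counts in abi4-1 at 13 DAP, against 4869, 987 and 3538 in R108, a log2 difference of -2.39 (limma adjusted p = 0.0453). The groups did not overlap, as in all 554 called genes, and the gene did not keep its call in every fit without 1 library (limma adjusted p up to 0.197). It was lower in abi4-1 at 24 DAP too, at 2294 in abi4-1 and 12221 in R108, and in mature seeds, at 221 in abi4-1, 197 in abi4-2 and 584 in R108. The log2 differences at 13 and 24 DAP were -2.39 and -2.41. The gene was chosen after its values were seen.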
